A study of Mus musculus with 4 samples.

Results

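The genes described here encode Polycomb repressive complex 2 (PRC2): the catalytic subunits Ezh2 and Ezh1, the core subunits Eed and Suz12, the accessory subunits Jarid2, Mtf2, Phf19 and Aebp2, and the histone-binding proteins Rbbp4 and Rbbp7. They were chosen by name, and every probe set that the platform annotation assigns to 1 of these 10 symbols was taken, which gave 35 of the 45101 probe sets of the array. All 10 genes, through 28 of the 35 probe sets, had a mean signal above the filter used for testing (2.55), as did 13730 of the 18194 genes on the array. Expression was measured in total RNA of mouse embryonic stem (ES) cells hybridised to 4 Affymetrix oligonucleotide arrays, 1 per sample. The homozygous group held 2 BAF250 knock-out samples, which the labels call ko1 and ko2. The group heterozygous for the knock-out and the wild type group held 1 array each. All cells were kept without feeder cells on gelatin, in serum-containing medium with the self-renewal cytokine that the labels call leukocyte inhibitory factor. BAF250 is an ARID-domain, DNA-binding subunit of BAF, one of the SWI/SNF complexes that move nucleosomes. The labels do not say which of its genes (Arid1a or Arid1b) or which part of it was altered, nor whether ko1 and ko2 are separately derived clones.

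PRC2 is the methyltransferase that places methyl groups on lysine residue K27 of histone H3, a mark of silenced chromatin. Ezh2 or Ezh1 carries the enzymatic SET domain, Suz12 is the scaffold, and Eed binds the finished mark and stimulates the enzyme. The accessory subunits fall into alternative complexes, one built around a Polycomb-like protein (Mtf2, Phf19 or Phf1) and the other around Jarid2 and Aebp2. In ES cells the complex occupies CpG-rich promoters of developmental regulators that are kept silent until differentiation. ES cells that lack PRC2 can still be propagated but differentiate poorly.

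The promoter windows of Jarid2, Rbbp7 and Rbbp4 are shown. Jarid2 had the lowest values among the members relative to wild type. Rbbp7 and Rbbp4 are close paralogues whose fitted values lay on opposite sides of wild type. None of these genes passed the test described below. Each window is the stretch of 250 bases before an annotated start from RefSeq on build GRCm38.p6, read on the strand of the gene. Capitals mark GC boxes (GGGCGG) and CCAAT boxes (CCAAT), searched on both strands. The windows are chr13:44730524-44730773 on the plus strand for Jarid2, chrX:162760122-162760371 on the plus strand for Rbbp7 and chr4:129335371-129335620 on the minus strand for Rbbp4.
Jarid2: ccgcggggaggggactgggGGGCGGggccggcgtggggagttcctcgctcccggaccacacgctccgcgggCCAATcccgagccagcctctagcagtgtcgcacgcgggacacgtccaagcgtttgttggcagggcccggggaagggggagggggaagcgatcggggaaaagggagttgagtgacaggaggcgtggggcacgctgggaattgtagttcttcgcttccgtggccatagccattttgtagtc
Rbbp7: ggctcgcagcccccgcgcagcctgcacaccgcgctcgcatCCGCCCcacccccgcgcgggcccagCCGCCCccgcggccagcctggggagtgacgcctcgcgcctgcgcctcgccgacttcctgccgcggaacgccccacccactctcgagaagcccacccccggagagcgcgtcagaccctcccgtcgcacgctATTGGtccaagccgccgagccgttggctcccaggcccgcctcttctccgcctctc
Rbbp4: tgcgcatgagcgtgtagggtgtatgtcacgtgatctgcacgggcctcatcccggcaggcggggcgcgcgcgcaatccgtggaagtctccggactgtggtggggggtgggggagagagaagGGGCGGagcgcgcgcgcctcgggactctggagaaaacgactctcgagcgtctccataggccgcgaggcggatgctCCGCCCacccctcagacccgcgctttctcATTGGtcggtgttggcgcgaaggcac
All 10 genes had a window in the RefSeq table, 14 windows in all, since Jarid2, Mtf2 and Aebp2 have more than 1. The 14 windows held a median of 22.5 CpG dinucleotides, against 6 over all 32851 windows of the table. Windows with few CpG were 1 of the 2 of Mtf2 and 2 of the 3 of Aebp2, with 1 to 3 each. GC boxes were present in 9 of the 14 windows (32.7% of all windows) and CCAAT boxes in 7 (33.8% of all windows). The 3 windows printed hold both words. For Jarid2 the window of the more upstream of its 2 annotated starts is shown, and the other (chr13:44731021-44731270) holds a GC box but no CCAAT box. The E2F words TTTGGCGC, TTTCGCGC and TTTCCCGC occurred in the windows of Suz12 and Phf19 (1.53% of all windows). Neither the palindromic NRF1 consensus (0.782% of all windows) nor the octamer ATGCAAAT (1.6%) was found in any of the 14.

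The arrays differed in overall signal, with medians of 2.70 (ko1), 2.61 (ko2), 4.01 (wild type) and 2.74 (heterozygous), so log2 differences are given after the array medians over the tested genes were made equal. On that scale the median gene stood at -0.18 when homozygous was set against wild type, and at -0.07 in both comparisons with heterozygous. Background was read from 27 control probe sets for bacterial transcripts that were not added, as the brightest of them, and lay between 3.82 (ko2) and 7.57 (wild type). Arid1a, the gene of BAF250a, read 7.03 and 3.57 on its brighter probe set in ko1 and ko2, with wild type at 109 and heterozygous at 50.4. Its other probe set read 17.3 (ko1), 1.06 (ko2), 42.9 (wild type) and 24.1 (heterozygous). On both Arid1a probe sets only ko2 was below background, so ko1 kept a signal above it. Arid1b, the gene of BAF250b, was below background on all 4 arrays. The ratio of 3' to 5' actin control signal was 5.01 (ko1), 2.61 (ko2), 2.86 (heterozygous) and 1.3 (wild type). The same ratio for Gapdh was 2.57, 1.21, 1.27 and 1.10, so that wild type was lowest on both and ko1 highest. The part of these signs of RNA quality in the differences below was not tested. Of 13 endoderm markers 7 rose against wild type (Col4a1, Col4a2, Lama1, Lamb1, Sparc, Cubn and Gata4) and 0 fell. Of all tested genes 0.328% rose and 0.0364% fell. The summed deposited signals of the endoderm markers were 3885 to 7014 in the homozygous arrays, with wild type at 153 and heterozygous at 113. Of 10 pluripotency markers 2 fell (Fgf4 and Utf1) and 0 rose, while Pou5f1 (-2.65) and Sox2 (-2.42) did not pass. All 10 were lower in both homozygous arrays than in the other arrays (21.4% of all tested genes). Their summed deposited signals were 771 and 884, with wild type at 3408 and heterozygous at 1985. These sums are not corrected for the brighter wild type array. In such bulk RNA, fewer cells of a type and less RNA per cell cannot be told apart, and the part of the endoderm and pluripotency markers in the PRC2 values was not tested.

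Setting the homozygous against the wild type cells asks which transcripts differ once both BAF250 alleles are disrupted. Jarid2, Eed and Mtf2 read 2.93- to 3.41-fold lower in the homozygous cells, and Rbbp7 read 3.29-fold higher. Ezh2, Aebp2 and Rbbp4 read 1.54- to 2.14-fold lower, with intervals that held 0. The quartiles of all tested genes were -0.81 and 0.56 log2 units, and Ezh2 (-0.62) and Rbbp4 (-0.75) lay between them. None of the 10 genes passed the test over all 13730 genes (limma with Benjamini-Hochberg adjustment, threshold 0.05): 0 rose, 0 fell and 10 did not pass. Among all tested genes 0.328% passed as higher and 0.0364% as lower, 45 and 5 genes. At an unadjusted p below 0.05 the count was 4 of the 10 (Rbbp7, Jarid2, Eed and Mtf2), against 6.97% of all tested genes. Below 0 lay 8 of the 10 genes, against 57.4% of all tested genes. The median log2 difference of the 10 genes was -0.92, beside -0.18 over all tested genes. It was -0.49 (all genes -0.06) with the probe sets of each gene averaged, -1.49 (all genes -0.75) with signals as deposited and -1.50 (all genes -0.75) with signals scaled to the spiked controls. Both homozygous arrays lay below both other arrays in 6 of the 10 genes (21.4% of all tested genes) and above both in 2 (18.1% of all tested genes). All members but Ezh1 and Phf19 were above background on all 4 arrays. Among all tested probe sets that bright, 30% had both homozygous arrays lowest and 16% had both highest. The spread rests on the 1 residual degree of freedom between ko1 and ko2, and the genotypes with a single array are taken to vary as ko1 and ko2 do. With signals as deposited, where the level of the wild type array enters every difference, 140 genes passed, 85 of them lower, and with signals scaled to the spiked controls 50 passed, 20 of them lower.

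**Figure D1:**
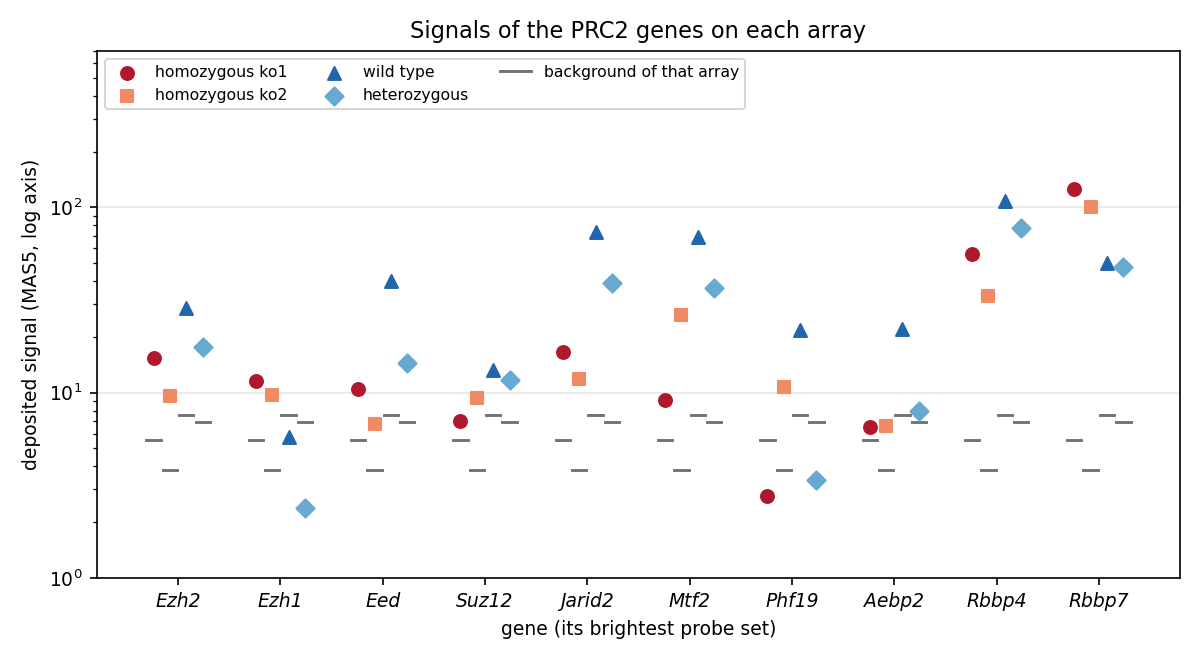
Deposited MAS5 signal (log axis) of the brightest probe set of each PRC2 gene on each of the 4 arrays, with short grey bars at the background of that array. Before array levels are made equal, Ezh2, Eed, Suz12, Jarid2, Mtf2, Aebp2 and Rbbp4 are lowest in both homozygous arrays. Rbbp7 and Ezh1 are highest in them, and Ezh1 lies below background in wild type and heterozygous.

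Among the catalytic subunits, Ezh2, the main methyltransferase of dividing cells, is covered by 1 probe set. Its signal was 15.4 (ko1), 9.57 (ko2), 28.5 (wild type) and 17.6 (heterozygous), above background on all arrays. Once the array levels were equal, ko1 and ko2 stood 0.34 and 0.90 log2 units below wild type, and the heterozygous array 0.07 below. The difference of -0.62 ± 0.57 (SE, 2 homozygous arrays against 1) had an interval from -1.86 to 0.63 and did not pass (limma adjusted p = 0.853). Wild type was highest in the deposited signals, where its array is also brighter overall.

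Ezh1, the paralogue that predominates in non-dividing tissue, gave probe sets that disagreed. On the brightest one it read 11.6 in ko1 and 9.66 in ko2, both above background, and 5.78 in wild type and 2.40 in heterozygous, both below it. Once the array levels were equal, the homozygous mean stood 2.065-fold above the wild type background. The fitted log2 difference was 1.37 ± 0.85, with an interval from -0.47 to 3.21 that held 0 (limma adjusted p = 0.799). A second probe set ran the other way, at 4.98 (ko1) and 3.002 (ko2), with wild type at 7.90 and heterozygous at 6.31 (log2 difference -0.37 ± 0.98), and only wild type was above background there. The remaining 2 probe sets were above background on no array but ko1, which read 6.08 on one of them. Averaging the probe sets turned the difference to -0.29.

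Of the core subunits, Eed, the WD40 protein that reads the mark, had 1 usable probe set, with signals of 10.5 (ko1), 6.76 (ko2), 40.1 (wild type) and 14.5 (heterozygous). Wild type was highest in the deposited signals, and once the array levels were equal the heterozygous array lay about midway between wild type and the homozygous pair. The homozygous cells were 3.03-fold lower than wild type (-1.60 ± 0.60, interval -2.89 to -0.30, limma adjusted p = 0.593). The difference from heterozygous was -0.78 ± 0.60, and that of heterozygous from wild type was -0.82 ± 0.69, neither past the test. When the other Eed probe set, below background on all 4 arrays, was averaged in, the difference from wild type shrank to -0.35.

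Suz12, the scaffold, showed the smallest difference of the members. Its brightest probe set, the only one of 6 above background on all arrays, read 7.06 (ko1), 9.32 (ko2), 13.2 (wild type) and 11.7 (heterozygous). After the array levels were made equal the homozygous arrays lay on either side of wild type, at -0.33 and 0.14. The difference was -0.09 ± 0.69 with an interval from -1.58 to 1.39 (limma adjusted p = 0.983), which is wide enough to hold a change of over 2-fold either way. The other 2 probe sets tested stood at 0.65 ± 0.88 and 0.36 ± 1.01.

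Jarid2, the substrate and recruitment subunit of one of the alternative complexes, was measured by 3 probe sets, all above background on all 4 arrays and all with the same order of arrays. The brightest read 16.7 (ko1), 11.8 (ko2), 73.4 (wild type) and 39.1 (heterozygous). The second read 16.02, 9.64, 54.3 and 33.3 in that order, and the third 8.79, 6.25, 43.0 and 19.7. On every one wild type was highest, heterozygous second and the homozygous arrays lowest, and the groups did not overlap. The brightest probe set was 3.41-fold lower in homozygous than in wild type cells (-1.77 ± 0.50, interval -2.85 to -0.69), with ko1 at -1.58 and ko2 at -1.96. That difference did not pass over all genes (limma adjusted p = 0.309). It passed with signals as deposited (-2.33 ± 0.56, adjusted p = 0.0249) and when wild type and heterozygous arrays were set together against the homozygous pair (-1.62 ± 0.39, adjusted p = 0.0342). Over all 11 alternatives with a test, adjusted p-values ran from 0.0249 to 0.665. The other probe sets stood at -1.52 ± 0.54 and -1.89 ± 0.61.

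Aebp2, the zinc finger partner of Jarid2 in the same complex, read 6.50 (ko1), 6.59 (ko2), 22.2 (wild type) and 7.94 (heterozygous) on its brightest probe set. Only wild type stood clear of the rest, and the other arrays were less far above background. The difference from wild type was -1.10 ± 0.70 (limma adjusted p = 0.802) and that from heterozygous -0.30 ± 0.70. The 5 Aebp2 probe sets did not move together. One read 9.91 in ko1 and below 1 on the other arrays (1.68 ± 1.58), and averaging all of them left a difference of 0.02.

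Mtf2, the Polycomb-like protein most abundant in ES cells, binds CpG-rich DNA and recruits the complex to it. Its brightest probe set read 9.07 (ko1), 26.2 (ko2), 69.5 (wild type) and 36.6 (heterozygous). Both homozygous arrays were below the others, but they were far apart themselves, at -2.33 and -0.77 against wild type. The mean difference was -1.55 ± 0.62 (2.93-fold lower, interval -2.90 to -0.20, limma adjusted p = 0.634), and -0.76 with all Mtf2 probe sets averaged. A second probe set read 9.66, 12.5, 36.1 and 22.9 in the same order of arrays (-1.11 ± 0.58) and another 9.07, 3.56, 17.9 and 14.8 (-0.99 ± 0.74). One more, above background on all arrays, read 8.37, 5.11, 9.64 and 9.94 and showed next to no difference (0.03 ± 0.79). Of the 6 probe sets 3 thus placed both homozygous arrays lowest.

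Phf19, another Polycomb-like protein, read 2.76 (ko1), 10.8 (ko2), 21.7 (wild type) and 3.37 (heterozygous) on its brighter probe set. The groups overlapped, since the heterozygous array and ko1 were below background while ko2 was above it. Its difference from wild type was -1.27 ± 0.92 (limma adjusted p = 0.822). The other probe set exchanged the homozygous arrays, which read 7.74 (ko1) and 2.15 (ko2), with wild type at 13.0 and heterozygous at 1.46. On both probe sets wild type was highest. On the brighter one heterozygous minus wild type had a fitted value of -1.86 ± 1.07, the largest among the members, and did not pass the test. That value has no fixed size because the heterozygous array was below background.

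Rbbp4 and Rbbp7 are near-identical WD40 proteins that hold histone tails in PRC2 and also serve other chromatin complexes, such as NuRD and Sin3 deacetylase complexes. The brightest Rbbp4 probe set read 55.9 (ko1), 33.4 (ko2), 108 (wild type) and 77.0 (heterozygous). The brightest Rbbp7 probe set read 126 (ko1), 101 (ko2), 50.2 (wild type) and 47.4 (heterozygous). Within Rbbp4 both homozygous arrays were the lowest, and within Rbbp7 both were the highest. For Rbbp4 the difference from wild type was -0.75 ± 0.48 (interval -1.78 to 0.29, limma adjusted p = 0.808). That value lay between the quartiles of all tested genes, -0.81 and 0.56. For Rbbp7 the difference was 1.72 ± 0.45 (3.29-fold higher, interval 0.73 to 2.71, limma adjusted p = 0.238).

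The platform names of both brightest probe sets carry the suffix x, which marks sets with some probes that also match other sequences, so their values are uncertain where the paralogues share sequence. The second Rbbp7 probe set, which carries no such suffix, read 101 (ko1), 114 (ko2), 41.9 (wild type) and 59.7 (heterozygous), a difference of 1.89 ± 0.47. Both Rbbp7 probe sets placed the homozygous arrays above both others, also in the signals as deposited. Rbbp4 had 2 more probe sets above background on all arrays, at -1.05 ± 0.58 (11.3, 27.8, 55.2 and 22.8 in ko1, ko2, wild type and heterozygous) and -0.85 ± 0.55 (14.1, 14.1, 38.2 and 24.0). Rbbp7 passed the test for the brightest probe set when wild type and heterozygous were set together (1.46 ± 0.34, adjusted p = 0.0284) and not in the other alternatives, where it stood between 1.13 and 1.88. The adjusted p-values of all 11 alternatives ran from 0.0284 to 0.676. The second probe set passed after quantile normalization (2.06 ± 0.40, adjusted p = 0.0445).

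**Figure D2:**
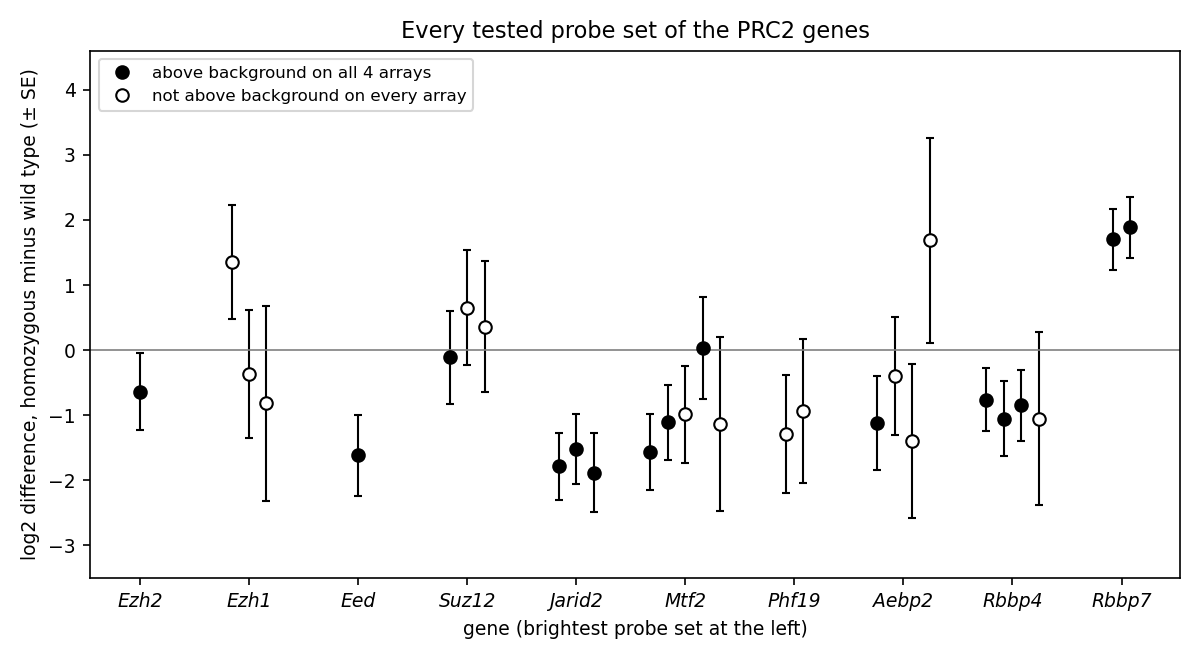
Log2 difference, homozygous minus wild type, with its SE for each of the 28 tested PRC2 probe sets, filled where the signal was above background on all 4 arrays. All 3 Jarid2 and all 4 Rbbp4 probe sets lie below 0 and both Rbbp7 probe sets above it, while those of Ezh1, Suz12, Mtf2 and Aebp2 lie on both sides.

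Over the probe sets as a whole, 15 of the 35 were above background on all 4 arrays, 12 on some and 8 on none. Among those 15, both homozygous arrays were lowest in 10 (30% of the 5375 tested probe sets above background on all 4 arrays), highest in 2 (both of Rbbp7; 16% of the 5375) and overlapped the others in 3. Of the 28 tested, 14 had both homozygous arrays lowest (21% of all tested probe sets) and 4 had both highest (17.5%). None of the 28 passed in the fit over 27022 probe sets, in which 0.377% of probe sets passed as higher and 0.0851% as lower. Probe sets of a gene share its RNA and are not replicates.

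The comparison with heterozygous cells asks whether losing the second allele makes a difference beyond losing the first. None of the 10 genes passed (limma; 0.32% of all tested genes passed as higher and 0.0291% as lower), and 2 of 10 had an unadjusted p below 0.05, against 6.55% of all tested genes. These were Jarid2, which stood at -1.48 ± 0.50 (adjusted p = 0.521), and Rbbp7 at 1.19 ± 0.45 (adjusted p = 0.644). The second Rbbp7 probe set, without the suffix x, stood at 0.82 ± 0.47 in the fit over probe sets (limma unadjusted p = 0.096). Mtf2 stood at -1.24 ± 0.62, Rbbp4 at -0.87 ± 0.48 and Ezh2 at -0.55 ± 0.57. Ezh1 had a fitted value of 1.83 ± 0.85, which has no fixed size because the heterozygous array was below background. Below 0 lay 7 of the 10 (52.9% of all tested genes). The median of the members was -0.54, beside -0.07 over all tested genes. None of the 28 probe sets passed either (0.352% of all probe sets passed as higher and 0.0259% as lower). This comparison shares the homozygous arrays with the one against wild type, so the values of each are given side by side and not as separate evidence.

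Heterozygous against wild type sets 1 array against 1, with the spread borrowed from the homozygous pair. None of the members and none of all tested genes passed (0% in either direction), and 0 of the 10 members had an unadjusted p below 0.05, against 3.18% of all tested genes. The members' median was -0.30, and 7 of 10 lay below 0 (53.2% of all tested genes). Jarid2 was at -0.29 ± 0.57, Mtf2 at -0.31 ± 0.72, Rbbp4 at 0.12 ± 0.55 and Rbbp7 at 0.52 ± 0.52. The second Rbbp7 probe set was at 1.07 ± 0.54 in the fit over probe sets. The step in Jarid2 signal from wild type to heterozygous (73.4 to 39.1) corresponds to that -0.29 once the array levels were equal.

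**Figure D3:**
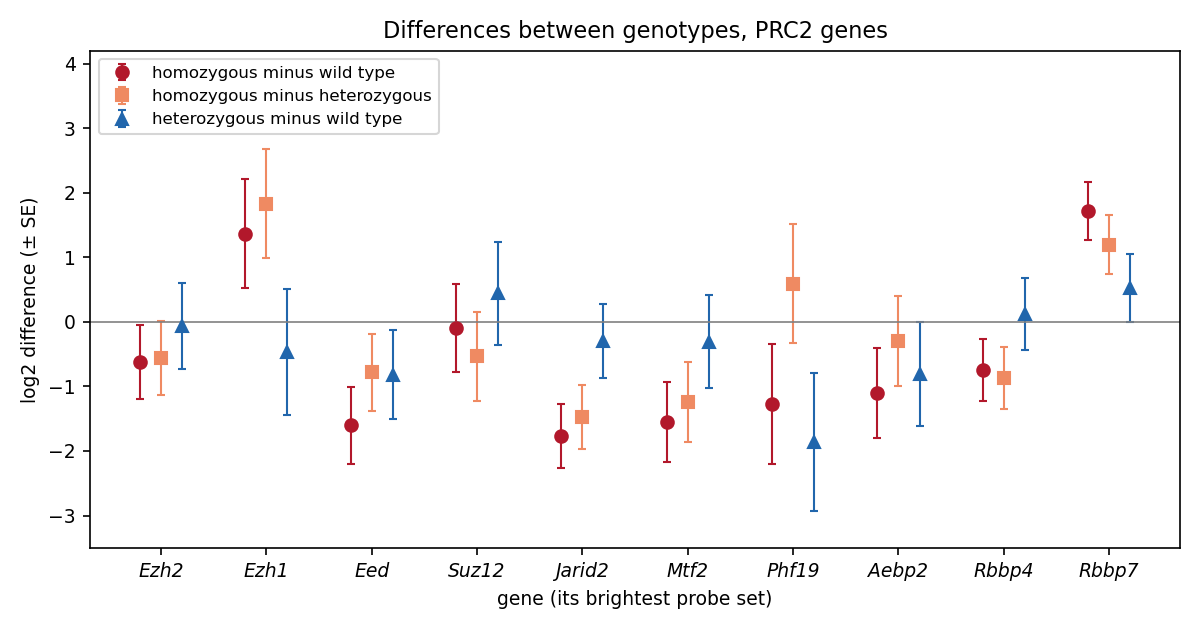
Log2 differences with SE of the brightest probe set of each PRC2 gene for homozygous minus wild type, homozygous minus heterozygous and heterozygous minus wild type. For Ezh2, Jarid2, Eed, Mtf2, Aebp2 and Rbbp7 the homozygous cells lie on the same side of both other genotypes, with the heterozygous cells between wild type and homozygous.

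Other genes of the pathway were taken from fixed lists. Of 5 further PRC2 partners none passed (median -0.54). Phf1, a further Polycomb-like gene, read 7.96 (ko1) and 6.49 (ko2), with wild type at 1.79 and heterozygous at 1.12, both below background. Once the array levels were equal, the homozygous mean stood 1.4-fold above the wild type background (limma adjusted p = 0.763). The interval of the fitted log2 difference, -0.29 to 4.77, held 0. In the deposited signals ko2 lay below the wild type background of 7.57. Epop, an elongin-binding partner of the Mtf2-type complex, stood at 0.55 ± 0.53. Lcorl stood at -1.16 ± 0.77 and Ezhip, an inhibitor of the enzyme in germ cells, at -0.83 ± 1.34. Ezhip was at or below background on 3 of the 4 arrays.

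Among 9 tested genes that act against PRC2, the demethylases of the mark and the trithorax group, none passed (median -0.30). Kdm6b, a demethylase of H3K27, read 19.1 (ko1) and 13.2 (ko2), with wild type at 2.09 and heterozygous at 3.71, both below background. Once the array levels were equal, it was at least 3.09-fold higher (fitted log2 difference 3.14 ± 0.82, limma adjusted p = 0.219). The probe set carries the suffix x. Wdr5, a core subunit of the trithorax-type methyltransferases, stood at -0.69 ± 0.51, Kmt2c at -0.55 ± 0.90 and Rbbp5 at -0.33 ± 0.63.

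Known targets that PRC2 keeps silent in ES cells were read through Hox genes and other developmental regulators. Of 19 Hox genes past the filter none passed the test, their median was 0.07, and both homozygous arrays lay above the others in 3 (18.1% of all tested genes) and below them in 2 (21.4%). Hoxd13 read 0.682 and 0.688 in ko1 and ko2, 8.49 in wild type and 4.83 in heterozygous, above background in wild type alone. Once the array levels were equal, that made the homozygous arrays at least 1.25-fold lower. Hoxa9 read 11.04 and 1.19 against 22.7 in wild type (-1.76 ± 1.00), Hoxa7 stood at 1.37 ± 1.53 and Hoxd3 at -1.35 ± 1.35. Hoxa7 was at or below background on 3 of the 4 arrays and Hoxd3 on 2. Below 0 lay 9 of the 19.

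Of 30 other regulators past the filter, 1 rose (0.328% of all tested genes) and 0 fell (0.0364%). Their median was 0.03, beside -0.18 over all tested genes. The one that rose was Gata4, an endoderm transcription factor, which read 68.2 (ko1) and 38.4 (ko2), with wild type at 7.98 and heterozygous at 7.02 (8.86-fold, 3.15 ± 0.56, limma adjusted p = 0.0329). Sox17, Gata6 and Foxa2, further endoderm factors, had large differences that did not pass, and wild type was below background for each. Once the array levels were equal, Sox17 was at least 7.82-fold higher (limma adjusted p = 0.063). On the same scale Gata6 was at least 4.77-fold higher (adjusted p = 0.0893) and Foxa2 at least 3.73-fold (adjusted p = 0.419). Against heterozygous, Sox17 was the 1 regulator that rose (fitted log2 difference 5.47 ± 0.73 with the heterozygous array below background, limma adjusted p = 0.00469). Of all tested genes 0.32% rose. The median of the 30 was 1.21, beside -0.07 over all tested genes. For heterozygous against wild type their median was -0.69. On the heterozygous array 59.9% of all tested genes lay at background (33.9% to 45.8% on the others), and 5 of the 30 regulators did on all 4 arrays. The part of this in the medians was not tested. Gata4, Sox17, Gata6 and Foxa2 also stand in the endoderm marker list. Both homozygous arrays were highest in 10 of the 30 regulators (18.1% of all tested genes) and lowest in 3 (21.4% of all tested genes). Of 7 tested fibroblast markers none passed against wild type, and 1 rose against heterozygous (0.32% of all tested genes). This was the intermediate filament gene Vim (2.71 ± 0.46, limma adjusted p = 0.0259). The summed deposited signals of the fibroblast markers were 131 to 151 in the homozygous arrays, 95.03 for wild type and 31.5 for heterozygous. Against wild type Dcn stood at 2.92, Col1a2 at 1.88, Lum at -1.26 and Thy1 at 1.18. Dcn, Lum and Thy1 were each at or below background on 3 of the 4 arrays, so their values have no fixed size. Of 5 tested trophoblast markers 1 rose against wild type (0.328% of all tested genes), the keratin gene Krt18 (3.11 ± 0.46, limma adjusted p = 0.0108). Krt8 (2.64), Elf5 (1.57) and Tfap2c (-1.32) did not pass, and Elf5 was at or below background on 3 of the 4 arrays. The part of these markers in the PRC2 values was not tested.

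The genes whose pattern over the 4 arrays was closest to that of Jarid2, by Euclidean distance of log2 values less each gene's mean among 8584 candidates, were C77080, Hspb1, 2810025M15Rik, Dmtn and Snhg3, at distances of 0.14 to 0.20. Hspb1, a small heat shock protein gene, read 169 (ko1), 140 (ko2), 804 (wild type) and 444 (heterozygous). Those closest to Ezh2 were Pitpnb, Supt20, C1qbp, Prpf19 and L3mbtl2, at 0.05 to 0.08. L3mbtl2, a Polycomb group gene of a PRC1-type complex, read 26.2, 15.4, 48.4 and 29.9 in ko1, ko2, wild type and heterozygous. With 4 arrays such closeness describes these arrays only.

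**Figure D4:**
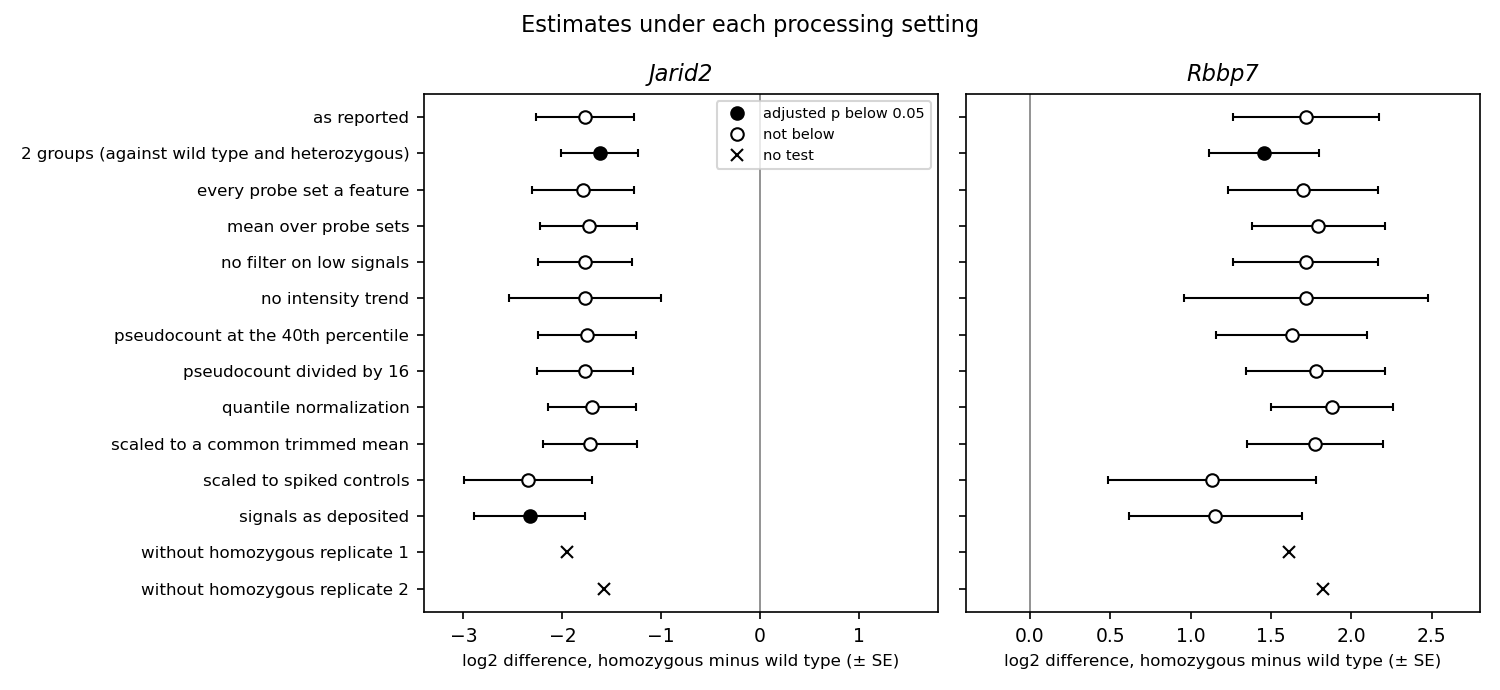
Log2 difference, homozygous minus wild type, of Jarid2 and Rbbp7 as reported and under each alternative processing, with SE; filled points had an adjusted p below 0.05 and crosses, with 1 homozygous array left out, have no test. Jarid2 lies between -2.35 and -1.58 and Rbbp7 between 1.13 and 1.88, each on 1 side of 0 throughout.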

How the data were processed

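The deposited values are linear signal intensities. The submitters' processing notes name MAS5, and for its version, scaling target and detection calls the sources used here hold no entry. Its 4 columns were matched to the samples by their labels. Probe sets were named through the platform annotation (34958 with 1 symbol, 34754 of them matched by gene ID to RefSeq, assembly GRCm38.p6), and sequences come from the RefSeq promoter table.

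Signals were analysed as log2(signal + 0.675), the 20th percentile of all values, and arrays were centred on their medians over the tested genes, because the deposited columns share no common level. Each gene was its brightest probe set by mean signal, and those above 2.55 (the 40th percentile) were tested. The fit used limma 3.58.1 (R 4.3.3), a separate mean for each genotype, an intensity trend and Benjamini-Hochberg adjustment. It had 1 residual and 12.4 total degrees of freedom, or 20.96 in the same fit over probe sets. Differences of probe sets that do not represent their gene come from that second fit. Folds are on the log2(signal + 0.675) scale, which understates changes of dim genes, and intervals are 95% intervals of the fit. Where the dimmer group was at background on each of its arrays, an at-least fold sets the mean of the brighter group against that background. It is taken after the array levels were made equal, so it differs from the ratio of deposited signals. It covers no spread between arrays. Whether the samples were separate cultures is not labelled, so a p-value covers no more than the spread among these samples, which may be technical. The number of arrays limits the precision.

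All members were described. From each other list, the called genes (up to 8) were named for homozygous against wild type, and where under 4 were called, those with the largest difference to make 4. Members and lists were chosen with earlier results of these data known. The fit was tested on simulated data drawn with its own variances for all arrays. Such data cannot show whether the genotypes with a single array vary as ko1 and ko2 do. Alternatives changed the array level, pseudocount, filter, probe sets, variance model and samples.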

Additional observations from a re-analysis of the deposited data

How the results depend on the processing

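No paired analysis was possible because wild type and heterozygous held 1 array each and the labels link no arrays between genotypes. Scaling to the spiked controls was chosen after seeing the data. For homozygous against wild type the 10 PRC2 genes had 0 calls except with signals as deposited (1, Jarid2) and in the fit of 2 groups (2, Jarid2 and Rbbp7), and 1 probe set passed after quantile normalization and in the fit of 2 groups, both of Rbbp7. Signals as deposited carry the level of the wild type array into each difference (median gene -0.75). Over all genes 50 passed for homozygous against wild type as reported, against 140 as deposited, 168 with 2 groups, 125 with every probe set a feature, 83 with the pseudocount at the 40th percentile, 33 after quantile normalization, 29 without the filter, 18 with the pseudocount divided by 16, 7 with probe sets averaged and 0 without the intensity trend. For homozygous against heterozygous 48 passed, against 104 as deposited, 102 with every probe set, 31 without the filter, 22 with the smaller pseudocount, 7 averaged and 0 without the trend, and for heterozygous against wild type 2 passed as deposited in place of 0. The cause was not tested. Directions also turned in values that did not pass as reported. With probe sets averaged these were, for homozygous against wild type, Aebp2 (0.0185) and Ezh1 (-0.29), for homozygous against heterozygous, Suz12 (0.30), and for heterozygous against wild type, Aebp2 (0.22), Eed (0.50), Mtf2 (0.36), Rbbp4 (-0.0511) and Suz12 (-0.32). As deposited, heterozygous against wild type turned for Rbbp4 (-0.48), Rbbp7 (-0.082) and Suz12 (-0.17), and after quantile normalization for Ezh2 (0.11). Without 1 homozygous array the fit has no residual degree of freedom, so those are values with no test. They turned Suz12 against wild type to 0.14 without ko1 and Phf19 against heterozygous to -0.33 without ko2. The members' median against wild type was -0.83 without ko1 and -0.79 without ko2. Of the 10 genes, Ezh1 and Phf19 had no probe set above background on all 4 arrays.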
